A study of Mus musculus with 7 samples.

Results

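Skin of aged mice was compared after topical ABT-263 or vehicle for the S100 genes other than calprotectin, that is without S100a8 and S100a9, which encode the calprotectin subunits. The genes were chosen by family: S100a1, known from muscle, S100a3, known from hair, S100a4 and S100a6, known from mesenchyme, and S100a10, S100a11, S100a13, S100a14 and S100a16, known from epidermis. They are 9 of the 55450 genes listed, and 9 of 9 passed the expression filter that left 17959 genes to test, S100a3 with counts from 29 to 8320. The samples were dorsal skin of wild-type C57BL/6 male mice aged 24 months, 4 libraries after DMSO (numbered 480 to 483) and 3 libraries after 5 μM ABT-263 (numbered 476 to 478), each after 5 days of treatment. ABT-263, or Navitoclax, is an inhibitor of anti-apoptotic BCL-family proteins that is used to kill senescent cells, and DMSO is its solvent. Both groups shared the handling that went with the treatment, which included clipping and chemical depilation of the back under isoflurane, an ethanol wash and a semi-occlusive cover. The labels number the libraries but do not say that each number is a separate mouse, so the p-values measure the spread between these libraries.

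S100 proteins are small calcium sensors of vertebrates. Most form dimers that change shape when calcium binds, which exposes a surface for target proteins, and S100A10 is the known exception that holds its partner annexin without calcium. Most of the genes lie side by side near the epidermal differentiation complex, a region full of genes for the skin barrier, and different cells of skin use different members.

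Of the 9 genes, 2 were lower after ABT-263 and 0 were higher at an adjusted p under 0.05 from edgeR. These were S100a1, which was 1.68-fold lower, and S100a4, which was 1.84-fold lower. Over all genes tested, 11.7% passed in the lower direction and 12.4% in the higher direction, 24.2% in all, so a call in either direction was common. At an unadjusted p under 0.05, 5 of the 9 were lower and 0 higher in edgeR, and 6 were lower and 0 higher in the DESeq2 Wald test. Over all genes tested in edgeR, 40.1% had an unadjusted p under 0.05 in either direction. In DESeq2 7983 genes had one, but the number of genes with a p-value was not taken, so no share is given. The share in the lower direction alone was not taken, so the counts of lower genes have no like background here. The groups' libraries did not overlap in 2 of the 9, both lower, against 37.1% of all tested genes (18.4% lower, 18.7% higher). The log2 fold change, ABT-263 over DMSO, was below 0 for 9 of 9 genes, where 49.9% of all tested genes were below 0 and 50.1% above, and its median was -0.61, against 0.0022 over all genes tested. The genes share libraries and in part cell types, so they are not independent of one another. Every scaling of the libraries that was tried left 9 of 9 below 0. Summed over the 9 genes, the level lay between 4316 and 5550.0 CPM (counts scaled to the library's TMM-adjusted total) in the DMSO libraries and between 2693 and 4053 CPM in the ABT-263 libraries. The gap between these ranges rests on S100a3 in library 481: without S100a3, library 481 was at 3965 CPM, below ABT-263 library 477 at 4051 CPM. Divided by length, the sums of the 9 genes overlapped too, at 3309 RPKM (CPM per kilobase of exon) in library 481 and 3330.3 RPKM in library 477. The plot of CPM by library shows each gene.

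**Figure D1:**
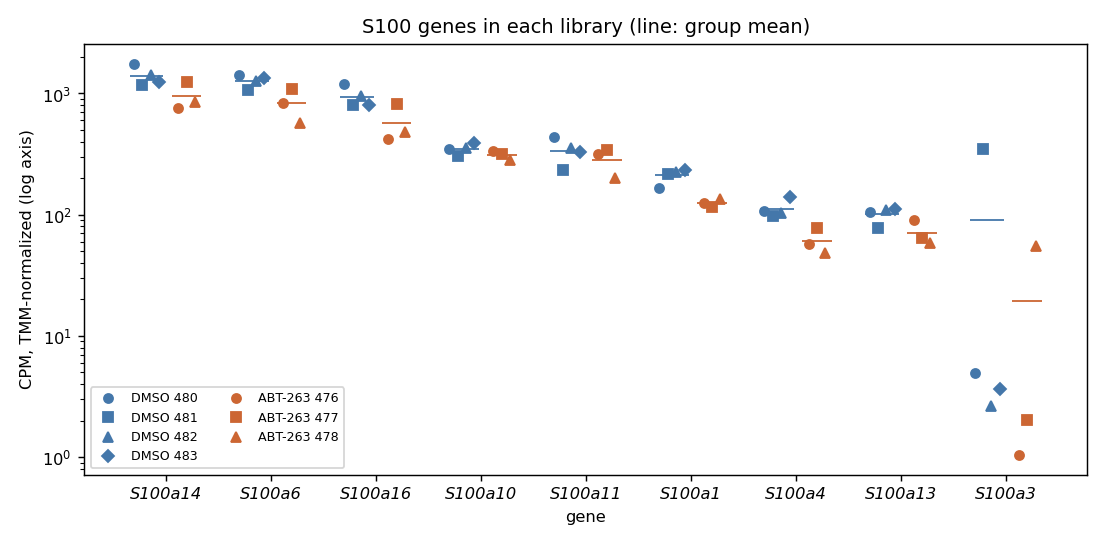
CPM after TMM scaling (log axis) of the 9 S100 genes in each library, with DMSO in blue, ABT-263 in orange, a symbol for each library and a line at each group mean. S100a1 and S100a4 have no overlap between the groups, and S100a3 spans from 1.04 to 351 CPM, with library 481 and, less so, library 478 far above the rest.

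Total counts ran from 20344364 to 26824123 in the DMSO libraries and from 27325963 to 43562330 in the ABT-263 libraries, so each ABT-263 library was deeper than each DMSO library. The lowest count of any of the 9 genes other than S100a3 was 1594, so counting error is small beside the spread between libraries. Markers of the skin's cell types were present: Krt14 of basal keratinocytes lay between 8427 and 24884 CPM and Col1a1 of fibroblasts between 1707 and 3718 CPM. Library 481 after DMSO and library 478 after ABT-263 stood apart in hair genes. Their summed levels were 3202 and 545 CPM over 17 hair genes, against 6.86 to 38.1 CPM in the other libraries. The 17 are shaft and sheath genes together with the regulators Foxn1 and Msx2. Counts that rest on these libraries are given below also without them.

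S100a1 encodes a calcium sensor of muscle that binds the ryanodine receptor, the calcium release channel of muscle fibres. The gene lies on chromosome 3 from 90511034 to 90514392 on the minus strand (GRCm38). It was at 166, 217, 227 and 234 CPM in DMSO libraries 480 to 483 and at 125, 117 and 136 CPM in ABT-263 libraries 476 to 478. Each ABT-263 library lay below each DMSO library. The mean was 211 ± 30.5 CPM (SD) in the 4 DMSO libraries and 126 ± 9.67 CPM in the 3 ABT-263 libraries, a log2 difference of -0.75 ± 0.16 (SE, 95% interval -1.11 to -0.39, edgeR adjusted p = 0.0158). Without DMSO library 482 the adjusted p from edgeR was 0.0506, and without libraries 481 and 478 together it was 0.0945. With those 2 libraries left out, 0 of all tested genes passed the adjusted threshold in edgeR and 5185 had an unadjusted p under 0.05. The call was kept under the other 15 of 17 alternatives, and over the 17 the adjusted p ran from 0.000599 to 0.0945.

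Back skin carries a thin sheet of skeletal muscle, and the muscle markers moved with S100a1. Among 15 muscle genes, 6 fell with ABT-263 and 0 rose, and the median log2 fold change was -0.79. Summed, they stood at 48182 to 95265 CPM in the DMSO libraries against 35236 to 47784 CPM in the ABT-263 libraries. Tnnt3, fast skeletal troponin T, fell by 1.16 on the log2 scale (adjusted p = 0.0319 from edgeR), while Acta1, skeletal actin, had a log2 difference of -0.43 (edgeR adjusted p = 0.348). Set against the summed muscle markers, S100a1 had a log2 ratio of -8.18, -8.53, -8.29 and -8.67 in DMSO libraries 480 to 483 and of -8.46, -8.24 and -8.46 in ABT-263 libraries 476 to 478. The groups overlapped, with a mean difference of 0.03 (exact permutation test, two-sided, p = 0.829, adjusted p = 0.886 over 9 such ratios). With each library left out in turn the difference lay between -0.05 and 0.11. In bulk tissue, fewer muscle cells and less RNA per muscle cell cannot be told apart. Ryr1, the ryanodine receptor of skeletal muscle that S100A1 binds, had a log2 difference of -0.22 ± 0.25 (SE, edgeR adjusted p = 0.556).

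S100a4 encodes a protein of fibroblasts and other mesenchymal and myeloid cells that binds non-muscle myosin. It lies on chromosome 3 from 90603771 to 90606045 on the plus strand. Its values were 106, 97.5, 104 and 139 CPM in DMSO libraries 480 to 483 and 57.0, 77.1 and 48.2 CPM in ABT-263 libraries 476 to 478. The groups did not overlap, and the DMSO library closest to the ABT-263 libraries was 481. The mean was 112 ± 18.6 CPM (SD) in the 4 DMSO libraries and 60.8 ± 14.8 CPM in the 3 ABT-263 libraries, a log2 difference of -0.88 ± 0.20 (SE, 95% interval -1.34 to -0.42, edgeR adjusted p = 0.0199). The adjusted p was 0.0578 without ABT-263 library 476, 0.0679 without library 478 and 0.0976 without libraries 481 and 478 together. The call was kept under the other 14 of 17 alternatives, and over the 17 the adjusted p from edgeR, DESeq2 or limma ran from 0.00238 to 0.0976. In the annotation used here, 51.7% of its exon bases overlap Gm42674 on the same strand, for which the table lists 2 counts in library 476 and 0 in each other library.

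S100a6, or calcyclin, is carried by fibroblasts and by proliferating cells and binds the protein encoded by Cacybp. On chromosome 3 it runs from 90612882 to 90624181 on the plus strand. It was at 1416, 1058, 1261 and 1340.1 CPM in DMSO libraries 480 to 483 and at 831, 1092 and 569.9 CPM in ABT-263 libraries 476 to 478. Library 477 lay above DMSO library 481, so the groups overlapped. The log2 fold change of S100a6 was -0.61 ± 0.25 (SE, 95% interval -1.18 to -0.04), which did not pass in edgeR (adjusted p = 0.107), and it passed in 0 of 17 alternatives.

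The fibroblast markers did not go down with this pair of genes. Among 12 fibroblast genes, 3 rose and 0 fell, and their median log2 fold change was 0.57. Col1a2, a chain of type I collagen, rose by 0.83 in log2 (edgeR adjusted p = 0.0410). Col1a1, the other chain and the more abundant, overlapped between the groups and had a log2 difference of 0.47 (edgeR adjusted p = 0.196). Their summed level was 4352 to 6218 CPM after DMSO and 6969 to 9786 CPM after ABT-263. The log2 ratio of S100a4 to this sum had a mean of -5.56 ± 0.22 (SD, n = 4) after DMSO and -7.05 ± 0.57 (SD, n = 3) after ABT-263. For S100a6 the means were -2.05 ± 0.09 and -3.30 ± 0.72 (SD, n = 4 and 3). Both ratios were lower in each ABT-263 library than in each DMSO library, with mean differences of -1.49 and -1.25. The two-sided exact permutation test gave p = 0.0286 for each, which is as low as 4 against 3 libraries allow. The adjusted p of this test was 0.129 over 9 ratios, so neither passed the correction. With no other of the 9 ratios at that floor, the correction could not give a lower value, so it cannot decide here. With each library left out in turn the difference lay between -1.74 and -1.18 for S100a4 and between -1.54 and -0.85 for S100a6. The log2 ratio of S100a4 to S100a6 overlapped between the groups and differed by -0.24 (exact permutation test, two-sided, p = 0.143, adjusted p = 0.238 over 5 pairs). Myeloid markers, which moved the opposite way, were at a summed 953 to 2107 CPM after DMSO and 2254 to 7554 CPM after ABT-263 for 12 macrophage genes (8 higher, 0 lower). For 10 neutrophil genes the sums were 113 to 1833 and 5137 to 8713 CPM (4 of 7 tested genes higher, 0 lower). Most of the neutrophil sum was S100a8 and S100a9. The other 8 genes summed to 15.9 to 29.3 CPM after DMSO and to 785, 68.5 and 65.3 CPM in ABT-263 libraries 476 to 478. The part of myeloid cells in the values of S100a4 and S100a6 was not tested. Neither gene was set against keratinocyte markers, so the part of keratinocytes was not tested either.

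**Figure D2:**
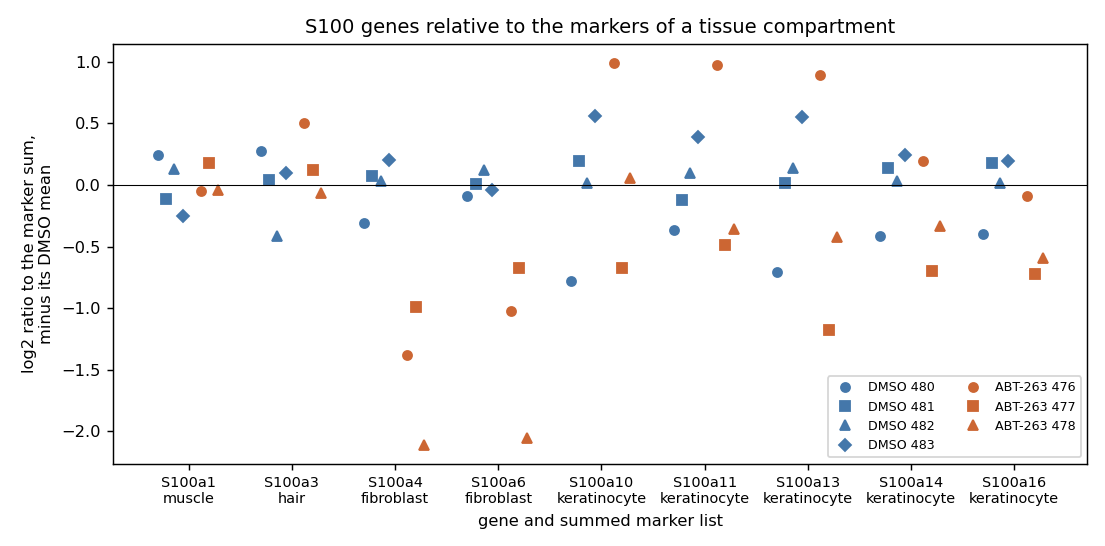
Log2 ratio of each S100 gene to the summed CPM of the marker list named under it, in each library, after subtracting the mean of the DMSO libraries (blue: DMSO, orange: ABT-263). S100a4 and S100a6 lie below 0 in the 3 ABT-263 libraries, while the groups overlap for S100a1 to muscle and S100a3 to hair.

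S100a3 encodes a cysteine-rich protein of the hair cuticle that the enzyme PADI3 modifies. The gene model runs from 90560578 to 90602702 on the plus strand of chromosome 3. It was at 4.91, 351, 2.62 and 3.62 CPM in DMSO libraries 480 to 483 and at 1.04, 2.02 and 55.4 CPM in ABT-263 libraries 476 to 478. Library 481 was the highest by far, library 478 was second, and the other 5 libraries lay between 1.04 and 4.91 CPM. The log2 difference of -2.21 ± 2.22 (SE, edgeR adjusted p = 0.497) thus rests on those libraries: it was 2.39 without library 481, -5.86 without library 478 and -1.26 without both (adjusted p = 0.257, 0.201 and 0.137 from edgeR). DESeq2 gave no adjusted p for S100a3, and over the rest of the 17 alternatives the adjusted p ran from 0.137 to 0.751. Padi3 followed the same libraries, at 54.8 CPM in library 481, 8.81 CPM in library 478 and between 0.358 and 0.491 CPM elsewhere. The log2 ratio of S100a3 to Padi3 overlapped between the groups and differed by -0.74 (exact permutation test, two-sided, p = 0.114, adjusted p = 0.238 over 5 pairs). Relative to the summed hair genes, S100a3 had a log2 ratio of -3.23 ± 0.29 (SD, n = 4) after DMSO and -3.05 ± 0.29 (SD, n = 3) after ABT-263. This difference of 0.19 was within the spread of the libraries (exact permutation test, two-sided, p = 0.457, adjusted p = 0.823 over 9 ratios). Foxn1 made up 8.90 of the 17.4 CPM of the hair sum in library 477, but 12.7 of 3202 CPM in library 481. Outside libraries 481 and 478 the ratio thus rests on a low sum with a different mix of hair genes. Of the 14 hair genes tested, 0 passed in edgeR, 0 had an unadjusted p under 0.05, and 0 passed in DESeq2, which gave no adjusted p for 12 of them.

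The 5 genes known from epidermis did not pass the test. On the plus strand of chromosome 3 they span 90514435 to 90524581 (S100a13), 90526856 to 90528837 (S100a14), 90537254 to 90543151 (S100a16), 93520488 to 93526287 (S100a11) and 93555080 to 93564643 (S100a10). S100a14, carried by stratified epithelia, was at 1764, 1166, 1416 and 1237 CPM in DMSO libraries 480 to 483 and at 766, 1232 and 858 CPM in ABT-263 libraries 476 to 478. S100a16 stood at 1205, 809, 944 and 805 CPM in the same DMSO libraries and at 423, 815 and 482 CPM in the ABT-263 libraries. For both genes the ABT-263 library 477 lay within the DMSO range and libraries 476 and 478 lay below it. Their log2 fold changes were -0.55 ± 0.24 (SE, 95% interval -1.11 to 0.01, edgeR adjusted p = 0.128) and -0.71 ± 0.28 (SE, 95% interval -1.35 to -0.08, edgeR adjusted p = 0.0923). Without library 477, S100a16 passed, with a log2 difference of -1.03 (edgeR adjusted p = 0.0295), in 1 of 17 alternatives, over which its adjusted p ran from 0.0295 to 0.263.

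S100a13 takes part in the non-classical release of FGF1 and interleukin-1 alpha from cells. It was at 104, 78.0, 110.3 and 111 CPM after DMSO and at 90.1, 63.8 and 58.6 CPM after ABT-263. Library 476 lay above DMSO library 481, so the groups overlapped, and the log2 fold change of -0.51 ± 0.20 (SE, 95% interval -0.96 to -0.06) did not pass in edgeR (adjusted p = 0.0899). Without library 476 it was -0.72 and passed (adjusted p = 0.0442 from edgeR), in 1 of 17 alternatives, over which the adjusted p ran from 0.0442 to 0.261. Of its cargoes, Fgf1 had a log2 difference of -0.06 (edgeR adjusted p = 0.878) and Il1a rose by 2.41 ± 0.63 in log2 (SE, edgeR adjusted p = 0.0326).

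S100a10, the light chain of the annexin A2 complex at the plasma membrane, was at 347, 307, 354 and 389.5 CPM after DMSO and at 336, 315 and 284 CPM after ABT-263. S100a11, which binds annexin A1 and is a cornified envelope protein, was at 435, 233, 353 and 327 CPM after DMSO and at 315, 339.6 and 201 CPM after ABT-263. In both genes the groups overlapped, and S100a10 had the smallest spread of the 9 genes, with a highest library 1.37 times the lowest. The log2 fold changes were -0.16 (95% interval -0.50 to 0.17, adjusted p = 0.435 from edgeR) for S100a10 and -0.24 (95% interval -0.83 to 0.35, adjusted p = 0.516) for S100a11.

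Keratinocyte markers, set beside these genes, overlapped between the groups. The summed basal markers stood at 18597 to 31472 CPM with DMSO against 14049 to 36209 CPM with ABT-263, and of 8 genes 1 was higher and 1 lower. Those of suprabasal cells stood at 16985 to 48821 CPM against 8799 to 31808 CPM, and of 11 genes tested 1 was higher and 1 lower. Relative to both lists together, the log2 ratio differed between treatments by 0.12 for S100a10, 0.04 for S100a11, -0.24 for S100a13, -0.28 for S100a14 and -0.47 for S100a16. With each library left out in turn these differences ran from -0.31 to 0.52, -0.42 to 0.31, -0.80 to 0.24, -0.51 to -0.07 and -0.66 to -0.34, in the same order. The sign turned without library 476 or 480 for S100a10 and S100a11 and without library 477 for S100a13. The groups overlapped in each of these 5 ratios, and the adjusted p of the exact permutation test over 9 ratios ran from 0.343 to 0.886. For S100a16 this depended on how the markers were combined. Against their mean log2 CPM it differed by -0.48, with an unadjusted exact permutation p = 0.0286, the lowest this test can give. The other ratios to keratinocyte markers then had an unadjusted p of 0.229 or more in this test.

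**Figure D3:**
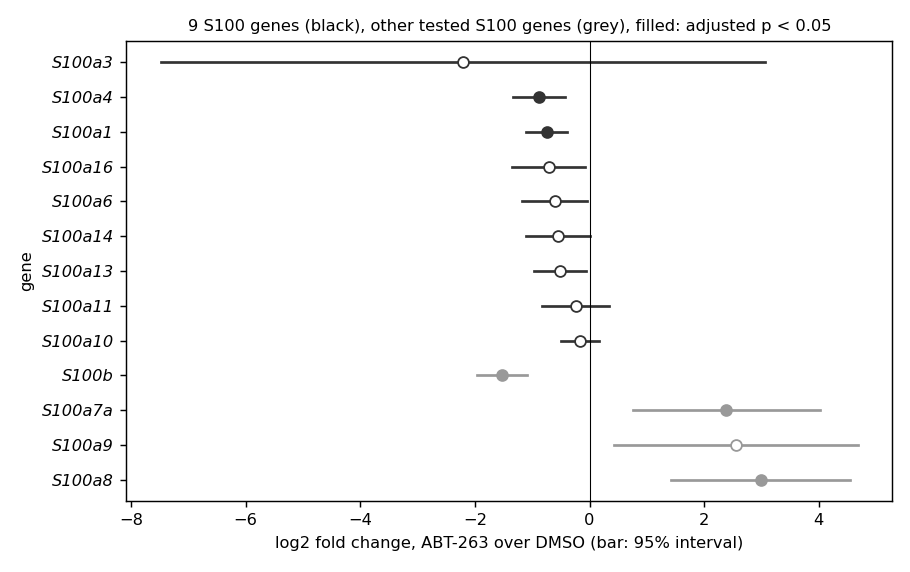
Log2 fold change of ABT-263 over DMSO from edgeR, with its 95% interval, for the 9 S100 genes (black) and the 4 other S100 genes tested (grey). A filled point has an adjusted p under 0.05, and 9 of 9 black points lie below 0 while S100a7a, S100a8 and S100a9 lie above 2 and S100b below -1.

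The order of levels was compared per length, in RPKM over the merged exons. After DMSO it was S100a6 (928 ± 113 RPKM, SD, n = 4), S100a14 (808 ± 155), S100a11 (659.5 ± 163), S100a16 (582 ± 116), S100a1 (304 ± 43.98), S100a10 (288 ± 28.1), S100a4 (191 ± 31.9), S100a13 (141 ± 21.8) and S100a3 (15.98 ± 30.6). The ranges over the DMSO libraries overlapped between each neighbour among S100a6, S100a14, S100a11 and S100a16, and between S100a1 and S100a10. The steps from S100a16 to S100a1, from S100a10 to S100a4, from S100a4 to S100a13 and from S100a13 to S100a3 had no overlap. After ABT-263 the level of S100a6 was 608 ± 191 RPKM (SD, n = 3), S100a11 came before S100a14, and S100a10 came before S100a1. S100a6 made up 23.0% to 25.2% of the summed RPKM of the 9 genes in the DMSO libraries and 18.9% to 24.0% in the ABT-263 libraries. For S100a10 this share was 6.35% to 8.27% and 7.80% to 10.6%. Shares within a fixed sum move against each other, and they depend on the gene models, since S100a6 has 1367 bases of merged exon but 783 in its longest transcript. With the longest transcript as the length, S100a16 came second after DMSO, at 835 RPKM, and S100a10 came before S100a1. For S100a4, 51.7% of the exon bases overlap Gm42674 on the same strand. Whether reads there were counted is not known, so its level per length and its place in the order may be too low.

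A total of 7 of the 9 genes lie within 98.5 kb on chromosome 3, counted between start sites from S100a1 to S100a6, and S100a11 and S100a10 lie 3006 kb and more away, beyond the epidermal differentiation complex. In the annotation, the starts of S100a1 and S100a13 are 43 bases apart and point away from each other. S100a1 passed the test and S100a13 did not, but their log2 ratio, 1.07 ± 0.33 (SD, n = 4) after DMSO and 0.85 ± 0.37 (SD, n = 3) after ABT-263, did not separate the groups (difference -0.21, exact permutation test, two-sided, p = 0.429, adjusted p = 0.536 over 5 pairs). The start regions of the genes that passed, S100a1 and S100a4, are shown beside that of S100a11, which did not. Each runs from 250 bases before to 50 bases after the RefSeq start (GRCm38.p6), 5′ to 3′ on the strand of the gene, at chr3:90514281-90514580 (minus), chr3:90603520-90603819 (plus) and chr3:93520246-93520545 (plus). Capitals mark 3 motifs searched on both strands: the AP-1 letters TGANTCA, the TATA box letters TATAAA, and a loose NF-κB motif (GGG and CC with 5 bases between them). Where matches overlap, their capitals run together.

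S100a1: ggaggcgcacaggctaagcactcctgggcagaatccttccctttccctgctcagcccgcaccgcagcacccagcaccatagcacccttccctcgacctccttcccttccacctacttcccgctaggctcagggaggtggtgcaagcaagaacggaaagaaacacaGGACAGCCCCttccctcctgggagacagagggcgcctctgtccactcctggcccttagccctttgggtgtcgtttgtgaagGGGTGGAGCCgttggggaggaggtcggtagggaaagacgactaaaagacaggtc

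S100a4: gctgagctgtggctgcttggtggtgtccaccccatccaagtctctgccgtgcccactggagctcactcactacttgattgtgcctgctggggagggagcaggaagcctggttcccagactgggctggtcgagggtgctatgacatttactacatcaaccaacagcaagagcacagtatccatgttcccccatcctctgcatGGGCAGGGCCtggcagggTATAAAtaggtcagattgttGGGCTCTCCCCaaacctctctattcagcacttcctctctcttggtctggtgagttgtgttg

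S100a11: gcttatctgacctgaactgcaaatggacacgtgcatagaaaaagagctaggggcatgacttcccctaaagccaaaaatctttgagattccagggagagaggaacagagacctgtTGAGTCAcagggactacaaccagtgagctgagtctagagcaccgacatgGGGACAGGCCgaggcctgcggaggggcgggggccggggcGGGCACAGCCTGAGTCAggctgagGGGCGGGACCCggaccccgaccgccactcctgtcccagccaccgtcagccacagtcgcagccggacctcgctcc

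The S100a4 window holds TATAAA with its first base 31 bases before the start, a match that 13.6% of 32851 promoter windows hold. The S100a11 window holds TGANTCA in 2 places, with first bases 136 and 38 bases before the start, against 7.81% of windows with at least 1 match. The S100a1 window holds neither, only the loose NF-κB motif, which 50.8% of windows hold, and it shares 204 bases with the window of S100a13 on the opposite strand. RefSeq windows were matched for 7 of the 9 genes, and those of S100a10 and S100a14 were not used here. A window of S100a3 also held TATAAA and a window of S100a16 also held TGANTCA, and neither gene passed the test. Each of these motifs was thus found in 2 of the 7 genes, and the loose NF-κB motif in 6. The E-box letters CANNTG, left in lower case, were found in the windows of 5 of these 7 genes and in 72.3% of all windows. The 7 genes have 11 windows, and a gene was counted if any of its windows matched. Counts of genes and shares of single windows are thus unlike measures. These matches are letters in a window and were not tested as sites.

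Along the 3054 kb from S100a1 to S100a10, 64 other genes entered the test, and 5 rose and 1 fell with ABT-263, with a median log2 fold change of -0.01. The higher ones were S100a7a, S100a8, Pglyrp3, which encodes a peptidoglycan-binding protein, and the processed pseudogenes Gm4202 and Rplp0-ps1, whose reads may be shared with near-identical copies. Lce1m, a late cornified envelope gene, was the lower one. These genes were named after their values were seen. Of 23 epidermal differentiation complex genes tested, 1 was higher and 1 lower (median log2 fold change 0.09). Lor, encoding the envelope protein loricrin, had a log2 difference of -1.08 ± 0.68 (SE, edgeR adjusted p = 0.275).

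**Figure D4:**
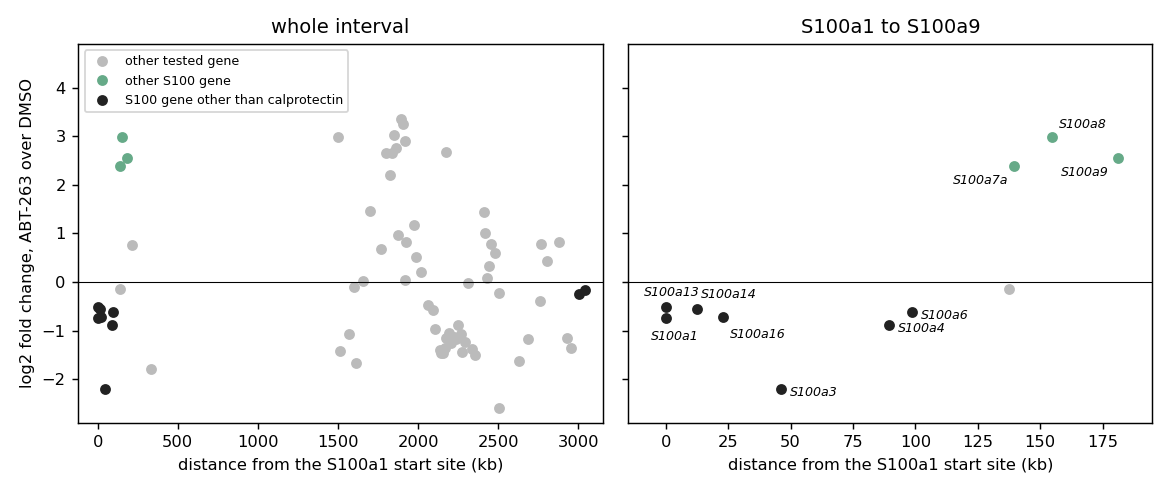
Log2 fold change of ABT-263 over DMSO for each tested gene from S100a1 to S100a10, against the distance of its start from that of S100a1 in kb, for the whole interval (left) and for the stretch from S100a1 to S100a9 (right). The 9 S100 genes (black) lie below 0 and the 3 other S100 genes of the interval (green) lie above 2.

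The other S100 genes moved in both directions. Of 7 on the list, 4 were tested, and S100a7a and S100a8 were higher and S100b lower. S100b, known from Schwann cells, melanocytes and fat cells, was at 9.33, 11.3, 9.96 and 11.2 CPM after DMSO and at 3.25, 4.21 and 3.42 CPM after ABT-263. The groups were far apart, with a log2 difference of -1.52 ± 0.19 (SE, edgeR adjusted p = 0.00619). The adipocyte marker sum was 580.1 to 1514 CPM with DMSO against 698 to 1899.96 CPM with ABT-263, and 0 of 6 genes passed in edgeR (3 higher at an unadjusted p under 0.05, 1 higher in DESeq2). The part of fat cells in the value of S100b was not tested. S100a8 rose by 2.98 ± 0.67 in log2 (SE, edgeR adjusted p = 0.0208), from 59.3 to 518 CPM after DMSO to 1714 to 2912 CPM after ABT-263. S100a9 did not overlap between groups either, but its log2 fold change of 2.56 ± 0.91 (SE) did not pass in edgeR (adjusted p = 0.0772), while 3 of these 4 genes were higher in DESeq2. S100a5, S100g and S100z had too few counts to test.

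Proteins that bind S100 proteins, receive them or depend on them were taken as a list of 25 genes. Of 24 tested, 8 were higher and 1 (Trpv6, a calcium channel gene, named after its value was seen) was lower, with a median log2 fold change of 0.15. Anxa2, the partner of S100A10, was at 1252 to 2003 CPM after DMSO and at 1122 to 1871 CPM after ABT-263, a log2 difference of -0.19 ± 0.25 (SE, edgeR adjusted p = 0.603). The log2 ratio of S100a10 to Anxa2 differed by 0.04 (exact permutation test, two-sided, p = 0.771). Ahnak, the giant scaffold of that complex, had a log2 difference of -0.13 (edgeR adjusted p = 0.575). Anxa1, the partner of S100A11, was at 254 to 334 CPM after DMSO and 604 to 638 CPM after ABT-263 and rose by 1.07 ± 0.15 in log2 (SE, edgeR adjusted p = 0.00635). The log2 ratio of S100a11 to Anxa1 was 0.38, -0.37, 0.26 and 0.37 in DMSO libraries 480 to 483 and -1.02, -0.83 and -1.62 in ABT-263 libraries 476 to 478. The groups did not overlap, with a difference of -1.32 (exact permutation test, two-sided, p = 0.0286, adjusted p = 0.143 over 5 pairs), so the difference did not pass the correction. As 4 against 3 libraries allow no lower p and no other pair reached it, the correction could not give a lower value and cannot decide here. With each library left out in turn the difference lay between -1.49 and -1.09. This pair was added after seeing the data. Most of its difference is the rise of Anxa1, as S100a11 alone had a log2 difference of -0.24 (edgeR adjusted p = 0.516). Anxa11, which binds S100A6, rose by 2.59 ± 0.28 (SE, edgeR adjusted p = 0.00578), and Cacybp, which binds S100A6 too, had a log2 difference of 0.28 (edgeR adjusted p = 0.234). Myh9, the non-muscle myosin heavy chain that S100A4 binds, rose by 0.98 ± 0.18 (SE, edgeR adjusted p = 0.0106). Ager, encoding the receptor RAGE for released S100 proteins, was at 1.91 to 8.01 CPM in the 7 libraries and had a log2 difference of -0.56 ± 0.47 (SE, edgeR adjusted p = 0.403). Tlr4, encoding another receptor for released S100 proteins and named after its value was seen, was at 1.64 to 3.54 CPM after DMSO and at 21.02, 5.70 and 8.29 CPM in ABT-263 libraries 476 to 478. It rose by 2.02 ± 0.47 in log2 (SE, edgeR adjusted p = 0.0216).

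Among 13674 protein-coding genes with a mean of at least 1 CPM, those whose profile over the 7 libraries lay nearest to S100a1 were Zswim7, Smarca2 and Hsf4. Their root mean square difference from S100a1, on centred log2 CPM, was 0.04, 0.06 and 0.06, against a median of 0.52 over all genes compared. Nearest to S100a4 were Mrps28, Atn1 and Efna5, with differences of 0.10, 0.11 and 0.11 against a median of 0.61. Likeness to a gene with lower values after ABT-263 selects genes that are lower too, so their own log2 fold changes, -0.90 to -0.68, are no separate result. Of the other marker lists, wound keratinocyte genes had a median log2 fold change of 0.97, with 0 of 7 past the threshold in edgeR and 0 at an unadjusted p under 0.05. In DESeq2 0 passed, and 2 of the 7 had no adjusted p. Among endothelial genes, 5 of 6 were higher and 0 lower in edgeR.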

How the data were processed

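Gene counts of bulk RNA sequencing of skin were analyzed for 4 DMSO and 3 ABT-263 libraries. The authors aligned reads to mm10 with STAR 2.7.9a and deposited, without normalization, counts of uniquely aligned proper pairs on the same strand per non-mitochondrial Ensembl gene (featureCounts, Subread 1.6.2). The deposited log2-like variance-stabilized values, made by the authors with DESeq2 1.23.10, served for 1 alternative. Symbols, positions and lengths came from GENCODE M21 on GRCm38, which is not the Ensembl release the authors counted with and holds 55104 of 55450 identifiers. Counts were tested in R 4.3.3 by edgeR 4.0.16 (quasi-likelihood, two-sided, TMM scaling, filterByExpr, robust) with Benjamini-Hochberg adjustment over 17959 genes and a threshold of 0.05. Ratios of log2 CPM were compared by exact permutation over 35 assignments, and ratios between genes were added after seeing the data. DESeq2 1.42.0, limma 3.58.1 and mgcv 1.9.3 served for alternatives. The procedure was tested on simulated data. No 2 libraries of a group agreed within counting noise. The genes and lists were chosen with earlier results of these data known. Named are the 9 genes, the other S100 genes, their known partners, the 2 most abundant genes of a list and the 3 nearest profiles. Krt85 and Calml5 matched no symbol. The result of 1 marker list is not reported here.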

Additional observations from a re-analysis of the deposited data

Results flagged for a closer look

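The level of S100a3 among the DMSO libraries was marked because library 481, at 351 CPM, lay far from the others, which were at 2.62 to 4.91 CPM. The gap was 0.993 of the whole range, above Dixon's 95% critical value of 0.829 for 4 samples. Of 22 measures examined (CPM of 13 S100 genes and 9 marker ratios) this was the 1 above its critical value, where chance gives about 1.1. The ratio of S100a3 to the summed hair genes in library 481, -3.19 on the log2 scale, lay between those of the other DMSO libraries (-3.64 to -2.96). The sums differ in make-up, however. In library 480 Foxn1 and Msx2 stood at 9.62 and 5.97 CPM in a sum of 38.1 CPM. In library 481 they stood at 12.7 and 47.6 CPM in a sum of 3202 CPM.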

How the results depend on the processing

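With each library left out in turn, the number of the 9 genes lower after ABT-263 lay between 1 and 3, and 0 were higher in each. It was 1 without DMSO library 482 (S100a4) and 1 without ABT-263 library 478 (S100a1), and without ABT-263 library 476 the 2 lower genes were S100a1 and S100a13. Without libraries 481 and 478 together, an alternative added after seeing the data, 0 were lower in edgeR (3 at an unadjusted p under 0.05). The 9 alternatives of test, scaling, filter, gene type, depth, scale and sequence composition each gave 2 lower and 0 higher. S100a3 changed direction without library 481, to 2.39 on the log2 scale, and its values with each library left out ran from -5.86 to 2.39. Over all genes, 4342 of 17959 passed, against 5661 of the 21822 genes with an adjusted p in DESeq2. With 1 library left out, 1735 to 4169 passed, out of 17665 to 18657 genes tested. Without libraries 481 and 478, 0 of 18170 passed. In DESeq2 the lower epidermal differentiation complex genes were 5 (1 in edgeR) and the higher ones 2 (1), the lower partners 2 (1), the higher neutrophil genes 2 (4) and the higher adipocyte genes 1 (0). DESeq2 gave no adjusted p for 4 of the 7 neutrophil genes tested in edgeR, for 3 of the 23 epidermal differentiation complex genes and for 1 of the 24 partners. Per-kilobase levels of S100a4, S100a6, S100a10 and S100a16 rose by more than their SD with the longest transcript as the length. Marker and pair ratios moved by less than their SD pooled over both groups, though with 1 library left out some moved by more than the SD of the DMSO libraries (S100a6 to fibroblast markers -0.85 without library 478, SD 0.09). With 4 against 3 libraries the exact test cannot give p below 0.0286, and with 1 library left out it cannot reach 0.05. No paired analysis was possible because the libraries of the groups share no replicate number.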
